A study of Mus musculus with 12 samples.

Results

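Acads, Acadm, Acadl and Acadvl encode the mitochondrial acyl-CoA dehydrogenases of straight-chain fatty acids, and their messages were followed here in the kidney cortex of mice labelled menopausal or control. The members were all probes annotated to these 4 genes, out of 6786 genes named on the array. There were 5 such probes among 15600, 1 each for Acadvl, Acadm and Acads and 2 for Acadl, and all 5 were among the 7793 probes kept by the filter on dim probes. Acads passed that filter only through the menopausal group, where its spots exceeded background in 7 of 12 channel measurements, against 4 of 12 in the control group. RNA came from 6 numbered cortex samples, 3 menopausal samples with the treatment VCD and 3 control samples, on 12 arrays that each compared a pair of samples in 2 colours. In mouse work on menopause the letters VCD commonly stand for vinylcyclohexene diepoxide, an agent that depletes the follicles of the ovary, but the labels do not spell them out. The sources used here give no sex, age, strain, dose or route. Nor do they say if a sample was 1 mouse or a pool, so the tests measure only how these samples vary. Each sample was measured on 4 arrays, with either dye on 2 of them, and 6 arrays set a menopausal against a control sample.

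Each turn of mitochondrial beta-oxidation begins when an acyl-CoA dehydrogenase places a double bond in the acyl chain and passes the electrons to the electron transfer flavoprotein. The family divides the work by chain length. Acadvl encodes the very long-chain enzyme, which sits on the inner membrane, Acadl the long-chain enzyme, Acadm the medium-chain enzyme and Acads the short-chain enzyme, and the last 3 are matrix proteins. The proximal tubule, which makes up much of the cortex, relies on fatty acid oxidation for its energy, and the nuclear receptor PPAR alpha is a known regulator of these genes.

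The 4 genes lie on different chromosomes, and the bases upstream of their annotated starts are shown because these stretches differ in composition and in the binding-site letters they hold. All 4 were found in the RefSeq promoter table of build GRCm38.p6. The printed windows, each the 250 bases before the start and all on the minus strand, were chr11:70015429-70015678 for Acadvl (gene 11370), chr1:66863310-66863559 for Acadl (gene 11363), chr3:153944644-153944893 for Acadm (gene 11364) and chr5:115119347-115119596 for Acads (gene 11409). Capitals mark AGGTCA, the half-site of many nuclear receptors, and GGGCGG, the GC box, on either strand.
Acadvl: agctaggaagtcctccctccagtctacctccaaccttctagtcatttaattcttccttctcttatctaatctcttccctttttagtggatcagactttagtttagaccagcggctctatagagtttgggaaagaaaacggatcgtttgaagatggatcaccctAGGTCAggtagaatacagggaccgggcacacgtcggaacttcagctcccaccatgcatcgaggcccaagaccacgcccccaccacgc
Acadl: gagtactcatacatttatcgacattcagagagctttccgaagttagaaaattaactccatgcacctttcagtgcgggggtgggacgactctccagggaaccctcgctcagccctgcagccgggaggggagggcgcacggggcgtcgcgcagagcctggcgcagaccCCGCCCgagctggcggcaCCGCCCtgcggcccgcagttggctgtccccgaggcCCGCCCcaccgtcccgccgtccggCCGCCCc
Acadm: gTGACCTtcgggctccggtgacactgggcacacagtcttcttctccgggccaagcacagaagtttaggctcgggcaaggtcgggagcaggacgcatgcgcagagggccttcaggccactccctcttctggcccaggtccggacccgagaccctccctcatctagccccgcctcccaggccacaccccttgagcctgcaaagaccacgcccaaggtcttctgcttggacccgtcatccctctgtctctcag
Acads: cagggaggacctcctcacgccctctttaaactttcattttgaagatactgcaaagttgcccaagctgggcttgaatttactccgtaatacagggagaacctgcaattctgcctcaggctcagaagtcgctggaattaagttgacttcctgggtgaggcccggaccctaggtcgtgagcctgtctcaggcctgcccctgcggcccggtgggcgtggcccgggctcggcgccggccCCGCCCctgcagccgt
The GC content was 49.6% for Acadvl, 68.0% for Acadl, 64.0% for Acadm and 60.4% for Acads. AGGTCA occurred once for Acadvl, at -87, and once for Acadm, at -249, while 14% of the 32851 promoters in the table held it in the same window. The Acadm match was also a match to AAGGTCA, the same letters with a preceding A, which 4.08% of promoters held. GGGCGG occurred 4 times for Acadl, at -84, -66, -31 and -7, and once for Acads, at -16, against 32.7% of promoters with at least 1 match. These matches are letters in a short window, not shown sites of binding.

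The first comparison asked whether the 4 messages differ between menopausal and control cortex. None of the 5 probes passed the test, and for each the values of the groups overlapped. A level below is a log2 value that is 0 at the average of all 6 samples. A difference is the menopausal mean minus the control mean on that scale, given with limma's standard error (n = 3 samples per group). Over the whole array 0% of the 7793 probes passed limma's test at an adjusted p of 0.05, with the smallest adjusted p at 0.9184, and 4.99% of probes, none of them a member, had an unadjusted p under 0.05. The groups did not overlap for 12.1% of all probes, against 0 of the 5 members. In whole cortex, fewer cells of a type and less RNA per cell cannot be told apart.

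Acadvl, the very long-chain gene, was at 0.096, -0.097 and 0.30 in the Menopausal 1, 2 and 3 samples, against -0.43, 0.22 and -0.091 in the Control 1, 2 and 3 samples. Menopausal 3 was highest and Control 1 lowest, and Control 2 lay above both other menopausal samples. The mean was 0.0998 ± 0.20 in the menopausal group and -0.0998 ± 0.33 in the control group (SD, n = 3 each). The difference was 0.1995 ± 0.18, a 1.15-fold ratio with a 95% interval of 0.869 to 1.52 (limma, adjusted p = 0.9388). Without Control 1 the difference was 0.090, and without Control 2 it was 0.34.

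Acadl, the long-chain gene, was read by a pair of probes. Its probe 1 was at -0.21, 0.033 and 0.20 in Menopausal 1, 2 and 3, against 0.23, -0.26 and -0.0017 in Control 1, 2 and 3. Probe 2 was at -0.088, -0.064 and 0.11 in Menopausal 1, 2 and 3, against 0.053, -0.058 and 0.048 in Control 1, 2 and 3. Both probes were low in Menopausal 1 and high in Menopausal 3, with a wider spread at probe 1. The higher Control 1 and lower Control 2 values of both probes rested on the array of that pair, without which Control 1 and Control 2 were at -0.042 and 0.014 for probe 1 and at -0.054 and 0.049 for probe 2. The difference was 0.019 ± 0.15 at probe 1 and -0.028 ± 0.12 at probe 2, with limma adjusted p of 0.9974 and 0.9962. The 95% intervals of the ratio, 0.793 to 1.29 and 0.812 to 1.18, were centred on 1.01 and 0.980. The sign at both probes turned with global loess, to -0.033 at probe 1 and 0.017 at probe 2.

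Acadm, the medium-chain gene, was at -0.16, 0.055 and 0.39 in Menopausal 1, 2 and 3, against -0.040, -0.33 and 0.082 in Control 1, 2 and 3. The mean was 0.095 ± 0.28 in the menopausal group and -0.095 ± 0.21 in the control group (SD, n = 3 each). Menopausal 3 was highest, Control 2 was lowest, and the other 4 samples were mixed between the groups. The difference was 0.19 ± 0.18, a 1.14-fold ratio with a 95% interval of 0.863 to 1.51 (limma, adjusted p = 0.9388). It rested on those extremes, since it was -0.029 without Menopausal 3 and -0.056 without Control 2. Both of these values lack the array of Control 2 with Menopausal 3, so they are not separate evidence. Without that array alone the difference was 0.072. It was 0.35 without Menopausal 1 and 0.39 without Control 3.

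Acads, the short-chain gene, was at -0.065, -0.047 and 0.067 in Menopausal 1, 2 and 3, against -0.092, 0.084 and 0.053 in Control 1, 2 and 3. Over all 6 samples its values lay closer together than those of the other members, though only slightly closer than those of Acadl probe 2. The control samples of Acadl probe 2 spanned less, 0.11 against 0.18 for Acads. The spots of Acads were dim, with net signals from -38.5 to 331.2 in the Alexa Fluor 546 channel and from -27.0 to 186 in the Alexa Fluor 647 channel. At such signals an offset of 50 in the background correction shrinks log2 ratios towards 0, so the narrow spread bounds the measured ratio and not the message. The difference was -0.030 ± 0.063, a ratio of 0.979 with a 95% interval of 0.887 to 1.08 (limma, adjusted p = 0.9858). It was 0.024 with global loess and 0.047 without Control 2.

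**Figure D1:**
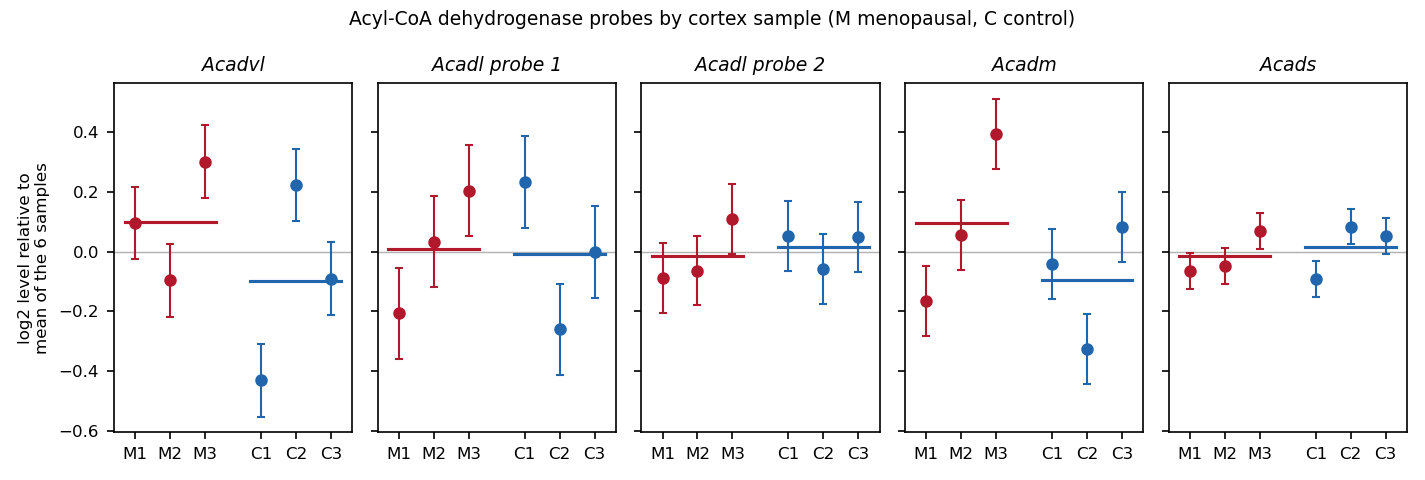
Level of each acyl-CoA dehydrogenase probe (log2, 0 at the average of all 6 samples) in the 3 menopausal samples (red, M1 to M3) and the 3 control samples (blue, C1 to C3). Bars are the standard error of a sample value from the 12 arrays and lines are group means, and the groups overlap in all 5 panels.

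**Figure D2:**
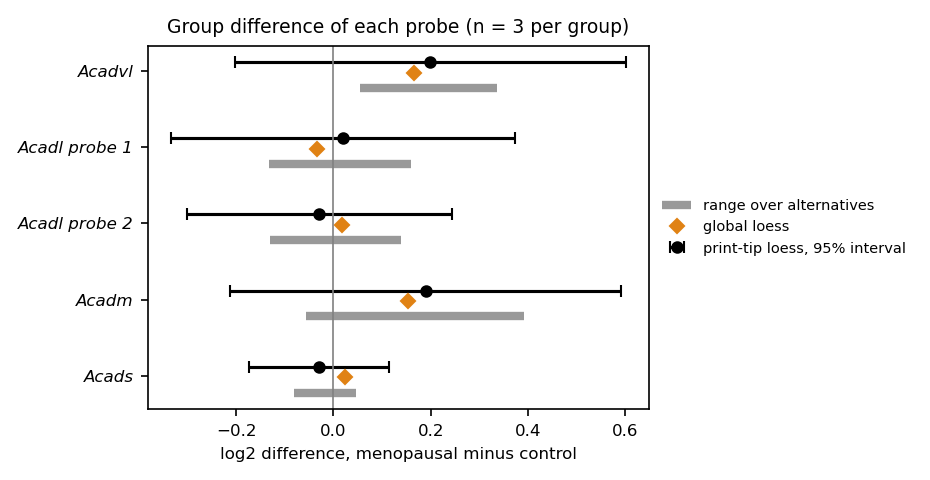
Difference of each probe (log2, menopausal minus control, n = 3 samples per group) with its 95% interval (black), its value with global loess (orange) and its range over all alternative settings (grey). Every interval includes 0, and the range lies above 0 for Acadvl alone, at 0.055 to 0.34.

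Differences between chain lengths were also compared pair by pair. For each pair the difference between the genes was taken within each sample and then compared between groups, with Acadl as the mean of its probes. Across the 6 pairs the largest value was Acadvl minus Acads, 0.23 (95% interval -0.22 to 0.68, exact permutation p = 0.2, adjusted p = 0.6). Acadm minus Acads gave 0.22 (-0.32 to 0.76, exact permutation p = 0.4, adjusted p = 0.8), and Acadl minus Acadm gave -0.19 (-0.49 to 0.11, exact permutation p = 0.2, adjusted p = 0.6). Acadvl minus Acadl was 0.20, Acadl minus Acads 0.026 and Acadvl minus Acadm 0.0096, each with an adjusted p of 0.9. The two-sided exact test of 3 samples against 3 cannot go below 0.1, so no pair could have passed. The intervals leave room for a gap between chain lengths in either direction. Acads was dim and its ratios were shrunk towards 0, so the pairs with Acads mainly follow the other gene.

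The samples of a group were compared with each other next, with the spread between arrays of the same RNAs as the error. Acadm spanned 0.56 among the menopausal samples (moderated F across 12 arrays in limma, unadjusted p = 0.02653, adjusted p = 0.3373) and 0.41 among the control samples (adjusted p = 0.4878). Acadvl spanned 0.40 among the menopausal samples (adjusted p = 0.4913) and 0.65 among the control samples (unadjusted p = 0.01403, adjusted p = 0.2366). The menopausal span of Acadvl rested on the array of Menopausal 2 with Menopausal 3, since it was 0.011 without that array. It was 0.042 on arrays of the lower slide range, a setting that may lack the same array and is not counted as separate evidence. Leaving out a sample drops its arrays and leaves a span over 2 samples. That span was 0.53 without Menopausal 1, 0.0017 without Menopausal 2 and 0.058 without Menopausal 3. The last 2 values also lack that array and are not separate evidence. For Acadl the spans were 0.41 and 0.49 at probe 1 and 0.20 and 0.11 at probe 2, menopausal and control in turn, and for Acads they were 0.13 and 0.18. None of the 5 members passed in either group, against 0.372% of all probes called among menopausal samples and 1.07% among control samples.

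Ratios on single arrays show where these values come from. On the 6 arrays that set a menopausal over a control sample, and with the dye term removed, Acadvl was positive on 4 and ran from -0.053 to 0.52. Acadm was also positive on 4 of 6 and ran from -0.49 for Menopausal 1 over Control 3 to 1.07 for Menopausal 3 over Control 2. Acadl probe 1 was positive on 4 of 6 (-0.24 to 0.25), probe 2 on 3 of 6 (-0.41 to 0.17) and Acads on 2 of 6 (-0.17 to 0.20). On the array with Control 1 in Alexa Fluor 546 and Control 2 in Alexa Fluor 647, Acadl probe 1 had a Control 2 over Control 1 ratio of -1.24, against a fitted value of -0.58, and its net Alexa Fluor 647 signal was below background at -225.8. Leaving out an array of 2 samples of the same group cannot move the group difference in this design. The unchanged 0.019 without that array therefore says nothing about the weight of this ratio. No spot of a member was saturated or marked abnormal, and the copies of a probe differed by at most 0.26 on an array.

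**Figure D3:**
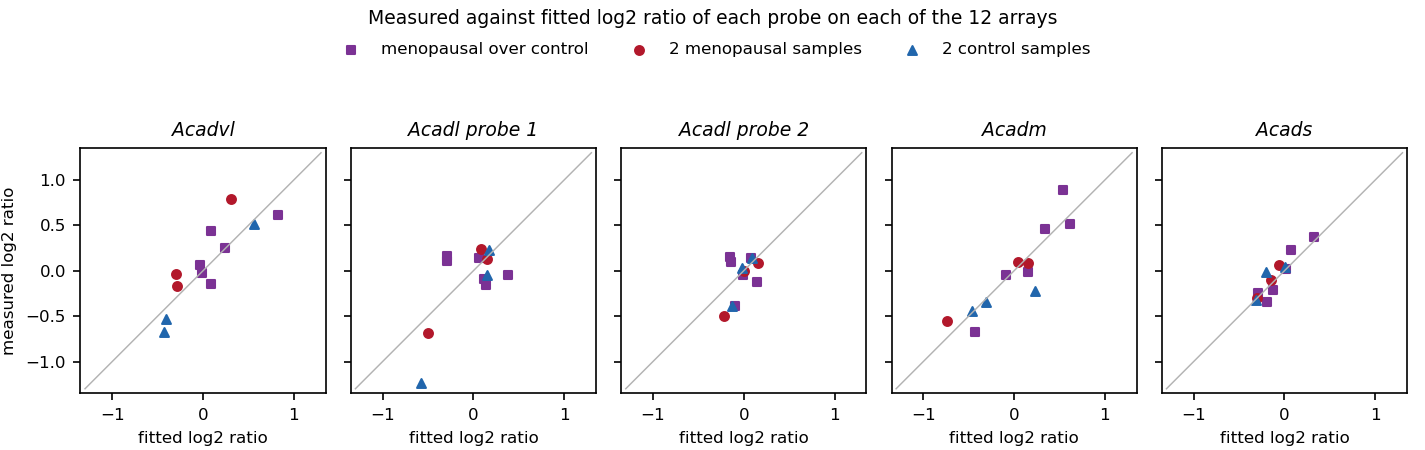
Measured log2 ratio against the ratio fitted from the 6 sample values and the dye term, for each of the 12 arrays and each probe, with the 6 menopausal over control arrays as squares, the 3 arrays of 2 menopausal samples as circles and the 3 arrays of 2 control samples as triangles. Points near the grey line are fitted closely, and the lowest point of Acadl probe 1 is the array at -1.24.

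Menopausal 3 was the highest of the 6 samples for Acadvl, Acadm and Acadl probe 2, 3 of the 5 probes, against 25.4% of all probes. The sample of lowest value was Control 1 for Acadvl and Acads, Control 2 for Acadm and Acadl probe 1, and Menopausal 1 for Acadl probe 2. The highest place of Menopausal 3 held for Acadm without any 1 of the 12 arrays. For Acadvl, without the array of Menopausal 2 with Menopausal 3, Menopausal 3 was at 0.097 and Control 2 was highest at 0.18. For Acadl probe 2, without the array of Menopausal 3 with Menopausal 1, Menopausal 3 was at -0.0079 and Control 3 was highest at 0.071. Control 3 was also highest without the array of Control 3 with Menopausal 1, at 0.17 against 0.083 in Menopausal 3. Control 1 was highest without the array of Control 1 with Menopausal 2, at 0.15 against 0.11. It was barely so without the array of Menopausal 3 with Control 1, at 0.0813 against 0.0806. With global loess Menopausal 3 was highest for Acadvl, Acadm, Acads and Acadl probe 1, and Control 1 for Acadl probe 2.

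For each gene the 3 genes of most similar profile over the 6 samples were listed from 4488 others, by Pearson correlation as a description over samples that share the same arrays. Acadvl was closest to 9130227L01Rik (r = 0.992), the elongation factor subunit gene Eef1d (0.989) and Pex16, a peroxisome assembly gene (0.989). Acadl was closest to AW536275 (0.990), the amino acid transporter gene Slc38a4 (0.980) and Synj2bp, a mitochondrial outer membrane protein gene (0.977). Acadm was closest to the histone demethylase gene Kdm6a (0.997), the cohesin gene Smc1a (0.996) and Gmps, of guanine nucleotide synthesis (0.990). Acads was closest to the plexin gene Plxnb1 (0.983), the kinase gene Stk11 (0.968) and Efcab14 (0.963). With 6 points and 4488 genes compared, these values rank genes and are not findings. None of the 12 genes belonged to the pathway lists.

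Other genes around the pathway were taken from 6 lists of 64 genes, which cover fatty acid oxidation, related dehydrogenases of amino acid breakdown, and PPAR regulators and targets. Of these genes 32 were on the array and 29 were measured above the filter. None passed limma's test after adjustment, and 6 had an unadjusted p under 0.05. Their differences were higher in 23 genes and lower in 6, with a median of 0.14, against a median of 0.0010 and 50.38% higher over all kept probes. The groups did not overlap for 8 of the 29 genes, 27.6% against 12.1% of all probes, 7 of them higher in the menopausal group. Menopausal 3 was the highest sample for 21 of the 29, 72.4% against 25.4% of all probes. These shares are a description and were not tested. The lists were chosen with earlier results of these data known. Each listed gene is its brightest kept probe, while the shares of all probes include dimmer and unnamed ones. Ech1, counted in the 23 and in the 21, passed the filter only through the menopausal group. With a stricter filter of 9 measurements, which drops Ech1, 22 genes were higher and the median difference was 0.138. The median of the 29 genes was -0.034, 0.029 and 0.28 in Menopausal 1, 2 and 3, against -0.083, -0.068 and -0.086 in Control 1, 2 and 3. Without Menopausal 3, 19 of the 29 genes were higher and the median difference was 0.046.

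In the mitochondrial spiral list, which holds enzymes that act after the dehydrogenases and also Acad11, another acyl-CoA dehydrogenase (0.071), 6 of 7 measured genes were higher, with a median of 0.0987. Eci1 and Eci2, isomerases that move the double bond of unsaturated chains, differed by 0.43 ± 0.15 and 0.44 ± 0.16 (limma, adjusted p = 0.9184 each). Eci1 was at 0.041, 0.029 and 0.57 in Menopausal 1, 2 and 3, against -0.26, -0.26 and -0.12 in Control 1, 2 and 3. Eci2 was at 0.032, 0.027 and 0.61 in Menopausal 1, 2 and 3, against -0.12, -0.31 and -0.23 in Control 1, 2 and 3. In both genes all menopausal samples lay above all control samples, and without Menopausal 3 the differences were 0.19 each. Acaa2, the thiolase, differed by 0.34 ± 0.17 and Hadhb, the thiolase subunit of the trifunctional protein, by 0.0987 ± 0.14, which was -0.028 without Menopausal 3.

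The electrons of all 4 dehydrogenases pass through the electron transfer flavoprotein, whose alpha subunit gene Etfa differed by 0.20 ± 0.13, and its dehydrogenase, whose gene Etfdh differed by 0.27 ± 0.17 (limma, adjusted p = 0.9197 each). Without Menopausal 3 these were 0.088 and 0.040. Other members of the enzyme family act in amino acid breakdown. Acad8, of valine breakdown, was at 0.10 ± 0.087, Acadsb, the short branched-chain enzyme, at 0.063 ± 0.12 and Ivd, of leucine breakdown, at -0.020 ± 0.082. Without Menopausal 3, Acad8 was at 0.016, Acadsb at -0.086 and Ivd at -0.082.

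In the carnitine shuttle and fatty acid activation list 4 of 7 genes were higher, with a median of 0.14, and with global loess 6 of 7 were higher, with a median of 0.0996. Cpt2, the inner-membrane carnitine palmitoyltransferase, was at 0.083, 0.055 and 0.45 in Menopausal 1, 2 and 3, against -0.40, -0.039 and -0.15 in Control 1, 2 and 3, a difference of 0.39 ± 0.14 (limma, adjusted p = 0.9184). The groups did not overlap for Cpt2, and the difference was 0.25 without Menopausal 3. Cpt1a, the outer-membrane enzyme that controls entry, differed by 0.26 ± 0.14 and Slc22a5, the carnitine transporter, by 0.24 ± 0.15, and without Menopausal 3 they were -0.010 and 0.0025. Acsl3, a long-chain acyl-CoA synthetase of the endoplasmic reticulum, differed by -0.17 ± 0.11, and by 0.058 without Menopausal 3.

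All 6 measured genes of peroxisomal oxidation, which shortens chains too long for mitochondria, were higher, with a median of 0.13. The smallest, Scp2, was at 0.0052 ± 0.13, so close to 0 that its sign carries no weight. Another of its 3 kept probes was at 0.23 ± 0.20. Abcd3, a transporter of the peroxisomal membrane, was at 0.0059, 0.058 and 0.70 in Menopausal 1, 2 and 3, against -0.29, -0.22 and -0.25 in Control 1, 2 and 3, a difference of 0.51 ± 0.19 (limma, adjusted p = 0.9184). Hsd17b4, the D-bifunctional protein, differed by 0.33 ± 0.14. Without Menopausal 3 they were at 0.16 and 0.064. Crot, the peroxisomal carnitine octanoyltransferase, differed by 0.14 ± 0.14 and Ech1, a dienoyl-CoA isomerase, by 0.13 ± 0.13, and both were below 0 without Menopausal 3, at -0.034 and -0.036. Ech1 exceeded background in 6 of 12 menopausal and 4 of 12 control measurements and so was kept only through the menopausal group.

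Among PPAR regulators and targets 4 of 16 genes were measured, 3 of them higher. Vnn1, a pantetheinase and known PPAR alpha target, was at 0.026, 0.12 and 0.89 in Menopausal 1, 2 and 3, against -0.46, -0.28 and -0.30 in Control 1, 2 and 3. Its difference of 0.69 ± 0.22 (limma, adjusted p = 0.9184) was the widest of the 29 genes, and it was 0.37 without Menopausal 3. Plin2, a lipid droplet coat protein, differed by 0.38 ± 0.21 and Acot2, a mitochondrial acyl-CoA thioesterase, by 0.29 ± 0.17, against 0.21 and -0.0084 without Menopausal 3. Esrra, which encodes a nuclear receptor that regulates Acadm, was at -0.019 ± 0.068. The 4 chain-length dehydrogenases lay between -0.030 and 0.20 on this scale, inside the range of -0.17 to 0.69 of the 29 pathway genes, and no test set them against each other.

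**Figure D4:**
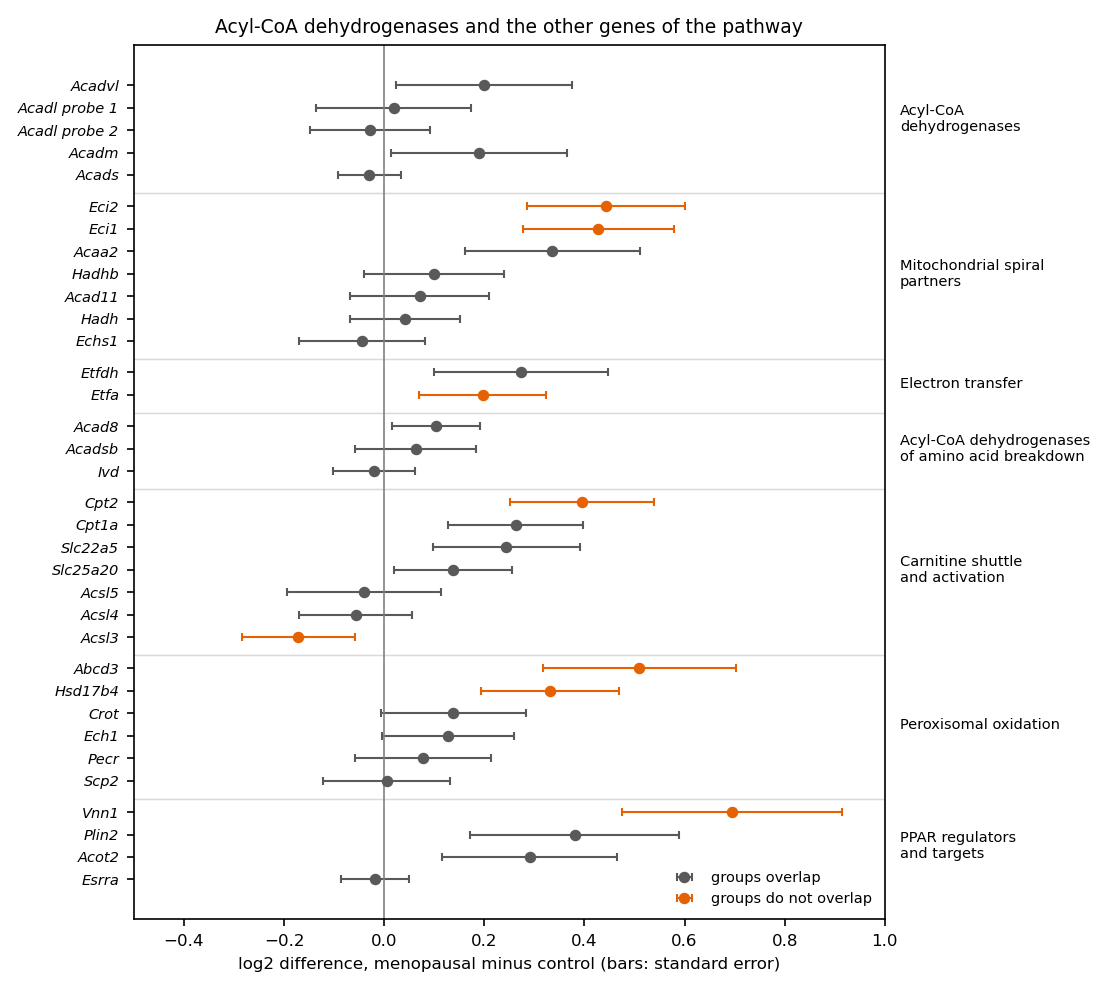
Difference of the 5 acyl-CoA dehydrogenase probes and the 29 measured pathway genes (log2, menopausal minus control, bars are standard errors, n = 3 samples per group), with the 8 genes whose groups do not overlap in orange. Vnn1 is widest at 0.69, 23 of the 29 genes lie above 0, and none passed the test.

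Between 16.63% and 77.47% of probes exceeded background in a channel, and the scanner tables mark 24 to 418 spots of an array as abnormal. Markers of the cortex were checked beside these values. Of 14 proximal tubule markers 3 were on the array, Gatm, Lrp2 and Miox, and all 3 were detected. Their median was -0.13, 0.18 and -0.069 in Menopausal 1, 2 and 3, against 0.12, -0.12 and 0.036 in Control 1, 2 and 3, so that Menopausal 3 did not stand apart in it. Gatm alone, an enzyme of creatine synthesis, was -0.59 in Menopausal 3, the lowest of its 6 values. Podxl, the measured podocyte marker, was 0.37 in Menopausal 3, the highest of its 6 values. The blood markers Hbb-b1 and Alas2 had a median of 0.41, 0.029 and -0.38 in Menopausal 1, 2 and 3, against -0.16, -0.41 and 0.51 in Control 1, 2 and 3. Calb1 of the distal tubule differed by -0.12 between groups, Lyz2 of immune cells by -0.15 and Star of the adrenal by -0.091. The 2 endothelial markers measured, Ehd3 and Emcn, had a median of -0.0051 and the 2 of 5 fibroblast markers, Col3a1 and Dcn, of -0.066. Of the collecting duct list 1 gene was on the array and none was kept, and no adipocyte marker was on the array. The part of cell makeup in these results was not tested.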

How the data were processed

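RNA of 6 cortex samples was amplified, labelled with Alexa Fluor 546 or 647 and hybridised in pairs to 12 arrays of 31200 spots in 48 blocks, with 15600 probes in 2 adjacent copies, per the labels' protocols and the files. For each array the authors deposited a scanner table of raw spot and local background intensity in 2 channels, per the file headers. The sources used here do not name the image software. Columns of the authors' value table each matched the array of another label, so that table was not used. Scan names in the scanner tables hold sample codes that map one to one onto the labelled samples.

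Probe names rest on a layout that was given in advance and checked here. Of 64 layouts it gave the highest correlation of brightness between probes of 1 gene, 0.4501 over 2921 probe pairs against 0.05527 for the next. It also gave the highest mean brightness percentile of 164 ribosomal protein probes, 0.8511 against at most 0.5649. The annotation listed 9445 probes, 9191 with 1 symbol and 254 with several, and 6155 are unnamed here. Symbols of 9085 probes were updated through gene identifiers of GRCm38.p6. No build is named by the files.

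Spot medians were background-corrected in limma 3.58.1 (R 4.3.3) by normexp with an offset of 50 and log2 ratios of the deposited intensities were normalized by print-tip loess. This was preferred to global loess because, with global loess, the block of the slide accounted for 0.3188 of the variance of the group difference. The share was 0.005089 with print-tip loess, which centres each block and so makes it small by construction. That value does not show which normalization is nearer the truth. Spots marked abnormal had weight 0, copies were averaged and no scaling between arrays was done. The filter asked for a signal more than 2 background SDs above background in 6 or more of the 12 channel measurements that a group has, in either group, which left 7793 probes, 5628 with 1 symbol, for 4489 genes. Least squares with a dye effect for every probe gave 6 sample values. These were compared 3 against 3 with limma's moderated statistic and an intensity trend, with Benjamini-Hochberg adjustment over 7793 probes at 0.05. Samples within a group were compared with limma's moderated F on 12 arrays, with 6 residual degrees of freedom that measure technical error. Precision is limited by the number of samples and arrays.

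All probes of the 4 genes are named, with the 4 genes of smallest p in each pathway list (all where fewer were kept) and the 3 genes of most similar profile to each member. Acad11 and Scp2 are given besides these. A listed gene is its brightest kept probe. Genes given by value among cell markers, and Gatm and Podxl in single samples, were chosen after their values were seen. The members, lists and settings were chosen with earlier results of these data known. Deviations of samples with the same number had correlations of -0.3556, -0.5146 and -0.1142 between groups. Samples with the same number never shared an array, which by itself pushes such correlations below 0. These values therefore cannot decide on a pairing, and none was used. Alternatives covered normalization, scaling, background, spot statistic, filter, spot weights, trend, array weights, arrays as replicates, blocks for sample number, slide range and repeat mark, and leaving out each sample and each array.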

Additional observations from a re-analysis of the deposited data

How the results depend on the processing

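No alternative brought a member past the threshold, between groups or within them. The nearest was the Acadm span among menopausal samples with median centring, 1.09 (moderated F in limma, adjusted p = 0.05038). Median centring widened the menopausal span of every member, to 0.75 for Acadvl and 0.88 for Acadl probe 1. Control spans moved in both directions with it. The Acadvl difference stayed above 0 in all 34 settings tried. Several of these could not move it. Settings of the filter, trend, blocks or arrays as replicates returned the same 0.1995. So did leaving out an array of 2 samples of the same group. Such settings add nothing on the stability of the sign. The near-zero differences changed sign. With global loess Acads was at 0.0242, Acadl probe 1 at -0.0334, Acadl probe 2 at 0.0174 and Acadl minus Acads at -0.0322. Median centring put Acadl probe 2 at 0.1398 and the median of the pathway lists at 0.2558. Scaling between arrays put Acadl probe 1 at -0.0211 and spot means put it at -0.0323. Acads was at 0.0025 with no background subtraction and at 0.0099 with array weights, which put Acadl probe 2 at 0.0012. The cause of these changes was not tested. Leaving out 1 sample or 1 array gave -0.0816 to 0.0474 for Acads, -0.0564 to 0.3915 for Acadm, -0.132 to 0.1594 for Acadl probe 1, -0.1299 to 0.0696 for Acadl probe 2, 0.0819 to 0.3365 for Acadvl and 0.0464 to 0.2241 for the pathway median. Lowest and highest came without Menopausal 3 and without Menopausal 1 for that median.

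The count of probes past the threshold between groups was 0 in every setting but 1. With arrays as replicates, which takes arrays of the same RNA as independent, it was 8, with 1 pathway gene, Vnn1, among them (limma, adjusted p = 0.01023). The counts within groups moved most. Among menopausal samples the 29 probes became 14 with global loess, 64 with median centring, 0 with scaling between arrays, 0 with no background subtraction, 11 with plain subtraction, 19 with spot means, 13 with no filter, 1 on arrays of the lower slide range and 87 with the repeat mark as a block, and 0 to 21 when 1 sample or array was left out. Among control samples the 83 probes became 35 with no background subtraction, 46 with no filter, 39 on arrays of the lower slide range and 414 with the repeat mark as a block, and 0 to 99 when 1 sample or array was left out. The filters left 15597 probes with none, 5880 with the stricter one and 3632 with plain subtraction, where Acads and Acadl probe 1 gave no value. Whether the cortex numbers pair the samples could not be decided here. With the replicate block the count between groups was 0 and the Acadm difference 0.1899, a value that a balanced block cannot change. Signal over background limits Acads most.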
